A study of Mus musculus with 6 samples.

Results

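Potassium channels let potassium ions cross the cell membrane and so set the resting potential and the shape and timing of action potentials. Their pore-forming subunits fall into voltage-gated channels (Kv), inward rectifiers (Kir), tandem-pore leak channels (K2P) and calcium-activated channels (KCa), and auxiliary subunits change the gating and surface level of these pores. In the hypothalamus they govern how neurons fire and respond to transmitters, while glia use a small set of Kir channels to take up extracellular potassium. The subunits were taken as every gene whose symbol is Kcn followed by letters and a number, with at most 1 closing letter. This gave 93 of the 32531 genes counted, of which 40 are Kv, 15 Kir, 14 K2P, 8 KCa and 16 auxiliary. The Kv group holds 30 alpha subunits and 10 modifiers that act only in mixed channels, and the KCa group includes the sodium- and pH-activated relatives Kcnt and Kcnu.

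The RNA came from the hypothalamus of untreated adult control mice of the line Lhx5-TRAP DT154, which carry the transgene Lhx5-EGFP/Rpl10a. In this method, translating ribosome affinity purification, an EGFP tag on ribosomal protein L10a lets antibodies pull down ribosomes, with their RNA, from cells in which the Lhx5 driver is active. IP denotes the 3 libraries of immunopurified RNA, and unbound denotes the 3 libraries of RNA labelled as unbound, which their titles call Input. All 6 libraries come from this 1 line and tissue, so every sample carries the transgene, and neither the sex nor the number of animals behind a library is given in the sources used here. P-values therefore measure the spread between these samples, which may be technical.

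The libraries held 32471045 to 46293837 gene counts in IP and 32926146 to 40768577 in unbound RNA. Levels are CPM, read counts scaled to library size, after TMM scaling over all genes, and differences are log2 fold changes of IP over unbound from edgeR's quasi-likelihood test, called at a Benjamini-Hochberg adjusted p under 0.05 over 16991 genes. Lhx5 averaged 61.8 ± 7.59 CPM in IP RNA and 3.39 ± 2.51 CPM in unbound RNA (SD, n = 3 each). Of 19 tested pan-neuronal markers, 12 were higher and 1 lower in IP RNA, while all 10 astrocyte and all 10 oligodendrocyte markers were lower. Among markers of neuron types, the GABAergic markers Gad1 and Gad2 were lower (-1.78 and -1.47) and the glutamatergic marker Slc17a6 was higher (2.08). The GABAergic marker Slc32a1 (-1.09) did not pass. Nor did the glutamatergic markers Slc17a7 (-2.50) and Slc17a8 (-0.87), whose fold changes were opposite in sign to that of Slc17a6. Unbound replicate 3 stood apart: summed choroid plexus markers were at 257, 431 and 127 CPM in IP RNA, against 2611, 2842 and 304 CPM in unbound RNA, and summed striatal markers at 383, 396 and 182 CPM in IP RNA, against 1749, 1334 and 101 CPM in unbound RNA. The listed choroid plexus marker Otx2 went the other way, at 11.8, 14.0 and 32.7 CPM in the 3 unbound libraries. Results that rest on unbound replicate 3 are given with and without it. In such bulk RNA, fewer cells of a type and less RNA per cell cannot be told apart.

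The pore of every potassium channel is lined by a selectivity filter, a short stretch of protein that strips water from potassium ions and holds them in a row. A search of the longest coding sequence of each gene in GENCODE M21 (GRCm38) looked for the filter as 5 residues in a row: serine or threonine, any residue, glycine, then tyrosine, phenylalanine or leucine, then glycine. It was present in all 77 pore-forming members, occurred 2 times in each of the 14 K2P genes, whose name refers to this, and was absent from all 16 auxiliary members. Of 21951 protein-coding genes, 5.36% held a match, so the pattern alone does not mark a channel. The Kv genes Kcna6 and Kcnh2 held a further match ahead of the filter, at residues 240 and 601, with leucine at the fourth position. The coding bases around the filter, 5′ to 3′, are shown for members on which the results below turn, with the filter codons in capitals.
Kcnc4: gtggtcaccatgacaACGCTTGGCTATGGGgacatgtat
Kcnh6: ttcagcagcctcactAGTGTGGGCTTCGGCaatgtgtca
Kcna1: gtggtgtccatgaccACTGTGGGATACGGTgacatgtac
Kcnj5: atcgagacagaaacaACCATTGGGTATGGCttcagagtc
Kcnj9: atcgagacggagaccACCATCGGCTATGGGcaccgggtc
Kcnj10: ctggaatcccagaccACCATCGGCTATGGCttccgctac
Kcnk9, first filter: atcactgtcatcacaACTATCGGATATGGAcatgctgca
Kcnk9, second filter: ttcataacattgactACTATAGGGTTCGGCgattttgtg
Kcnk3, first filter: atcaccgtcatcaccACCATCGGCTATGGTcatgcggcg
Kcnk3, second filter: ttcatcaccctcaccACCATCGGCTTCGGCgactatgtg
The voltage-gated and Kir filters shown end in a tyrosine codon and a glycine codon, apart from Kcnh6, which has a phenylalanine codon before the last glycine. Kcnk9 and Kcnk3 carry a tyrosine codon there in the first filter and a phenylalanine codon in the second.

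Of the 93 subunits, 78 passed the filter on low counts. The 15 that did not were Kcna7, Kcna10, Kcne1, Kcne3, Kcnj1, Kcnj15, Kcnk5, Kcnk7, Kcnk15, Kcnk16, Kcnk18, Kcnmb3, Kcnn4, Kcnq1 and Kcnv2, with at most 32 counts in any library. Kcnn4, a calcium-activated channel of blood cells and microglia, was among them, with 0, 0 and 1 counts in IP RNA, against 4, 0 and 1 counts in unbound RNA, and a difference was not detectable at this depth. Of the 78 tested, 13 (16.7%) were higher in IP RNA, against 21.1% of all genes tested, and 18 (23.1%) were lower, against 23.2% of all genes. The remaining 47 did not pass the test. The median log2 fold change was -0.30 over the 78 and -0.01 over all genes. Between libraries the subunit median had an SD of 0.32 on the log2 scale, no smaller than this difference. The share called is thus near the background in both directions, and the description below turns on which subunits moved. With scaling on pan-neuronal markers, which puts the median of all genes at -0.60, 5 subunits were higher and 36 lower. These were 6.41% and 46.2%, against 3.87% and 45.7% of all genes.

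By class, Kv channels had 5 higher and 4 lower of 36 tested (13.9% and 11.1%). Kir channels had 2 higher and 4 lower of 13 (15.4% and 30.8%), and K2P channels 3 higher and 1 lower of 9 (33.3% and 11.1%). The KCa class had 0 higher and 3 lower of 7 (0% and 42.9%). Auxiliary subunits had 3 higher and 6 lower of 13 (23.1% and 46.2%). The shares over all genes were 21.1% higher and 23.2% lower. Median log2 fold changes were -0.30 for Kv, -0.14 for Kir, 0.22 for K2P, -0.66 for KCa and -1.45 for auxiliary subunits. Summed levels gave K2P 243 ± 28.4 CPM in IP RNA and 179 ± 35.2 CPM in unbound RNA, and Kir 228 ± 14.8 CPM in IP RNA and 391 ± 50.3 CPM in unbound RNA (SD, n = 3 each). Most of the Kir difference lay in 1 gene, Kcnj10, with means of 14.6 CPM in IP RNA and 163 CPM in unbound RNA. All subunits together summed to 3324 ± 264 CPM in IP RNA and 3794 ± 277 CPM in unbound RNA. Without unbound replicate 3 the calls became 16 higher, 20.5% against 24.0% of all genes, and 35 lower, 44.9% against 25.8% of all genes. All 18 falls and 12 of the 13 rises were called in both fits.

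**Figure D1:**
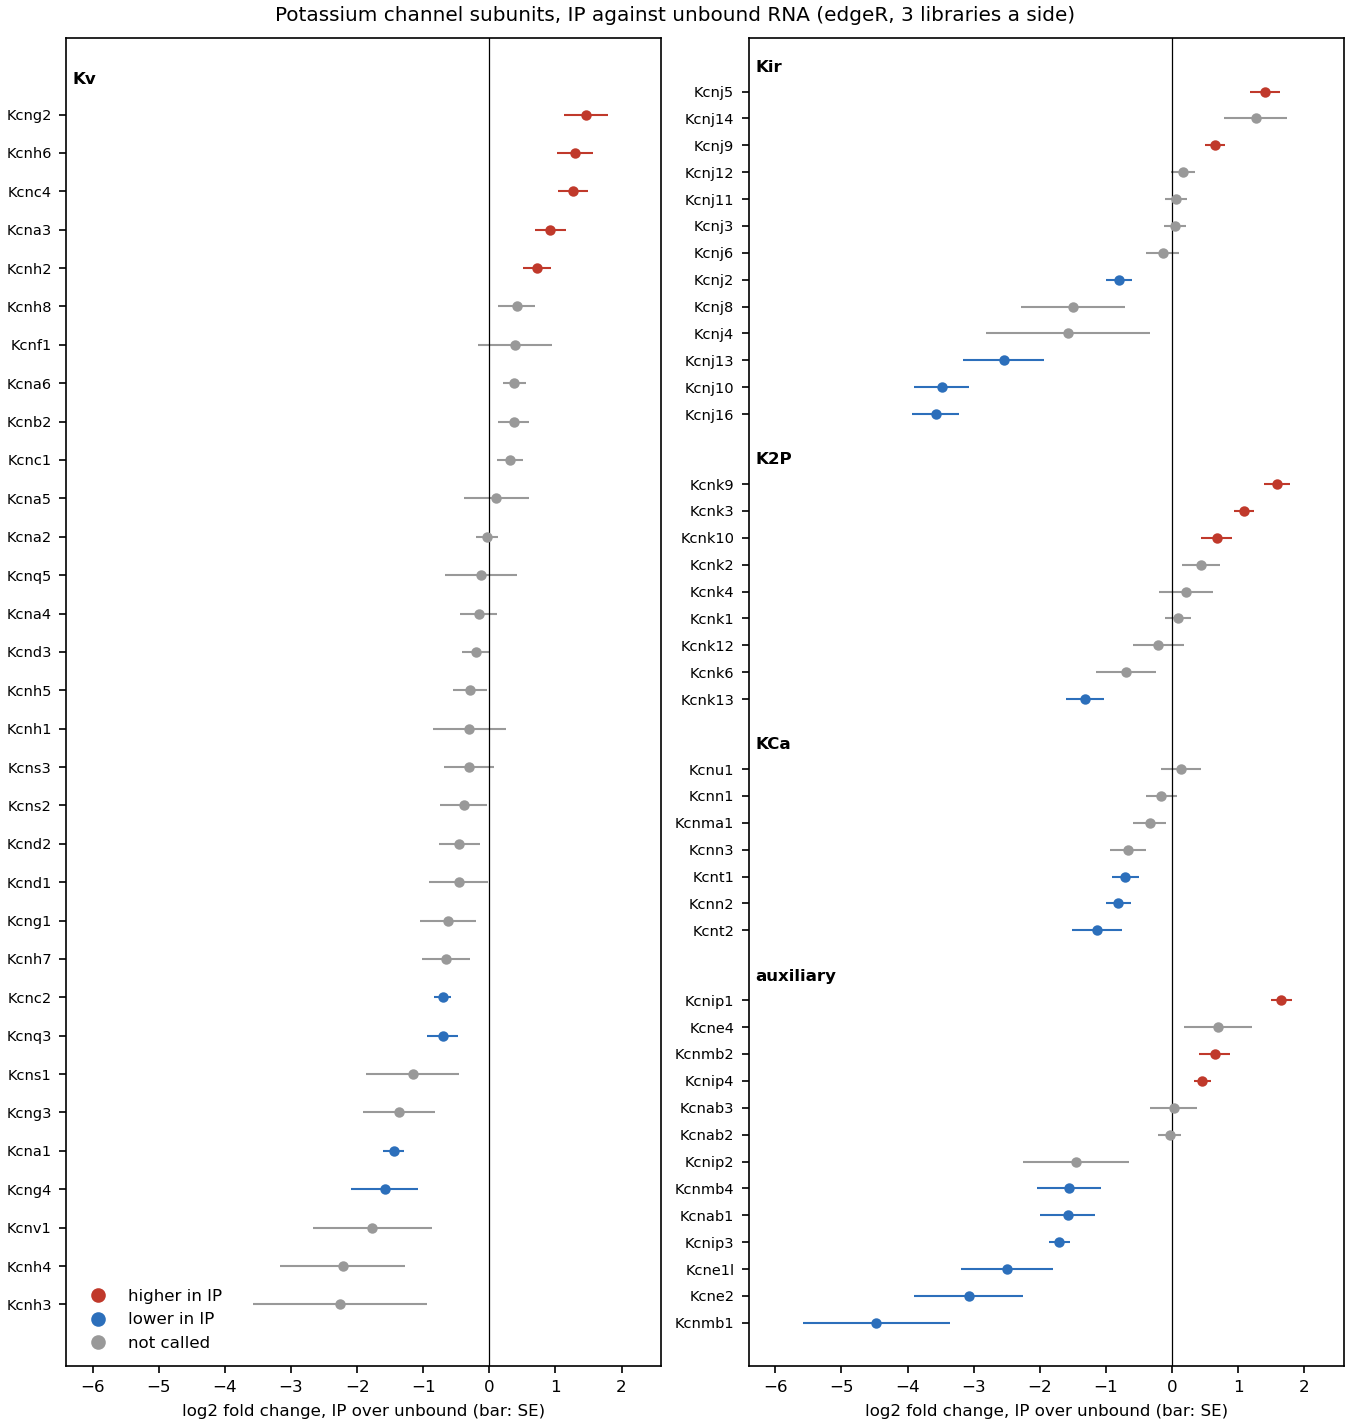
Log2 fold change of IP over unbound RNA for 74 of the 78 tested subunits by class, with bars of 1 standard error from edgeR and colours for the call at an adjusted p under 0.05. Rises reach 1.66 for Kcnip1 and falls reach -4.47 for Kcnmb1, and Kir and auxiliary subunits span both ends.

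Among voltage-gated channels, the Kv3 gene Kcnc4 and the erg genes Kcnh6 and Kcnh2 were higher in IP RNA, and the Kv1 gene Kcna1 and the Kv3 gene Kcnc2 were lower. Kv3 channels open at high voltage and close fast, which lets neurons fire at high rates, and erg channels damp firing near threshold. Kcnc4 (chr3:107438303-107459552, minus strand, mm10), which encodes Kv3.4, had 91.9, 76.5 and 80.2 CPM in the 3 IP libraries, against 26.4, 28.7 and 48.4 CPM in the 3 unbound libraries. The groups did not overlap: the lowest IP library was above unbound replicate 3, the highest of its group. The difference was 1.26 ± 0.23 on the log2 scale (SE, edgeR adjusted p = 0.00276). Kcnc2 (chr10:112271121-112467024, plus strand), which encodes Kv3.2, had 94.8, 94.5 and 79.6 CPM in IP RNA, against 142, 153 and 143 CPM in unbound RNA. It was lower in all 3 IP libraries, at -0.70 ± 0.13 on the log2 scale (SE, edgeR adjusted p = 0.00287). The ratio of Kcnc4 to Kcnc2 counts within a library, which no scaling changes, was 0.969, 0.81 and 1.01 in IP RNA, against 0.186, 0.188 and 0.338 in unbound RNA. The choice of a rise over a fall fixes its direction, so this ratio shows size only. Kcnc1, another Kv3 gene, did not pass the test, at a log2 fold change of 0.31.

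Kcnh6 (chr11:106008124-106034549, plus strand), an erg-type channel, had 5.75, 7.91 and 9.25 CPM in IP RNA, against 2.76, 2.67 and 3.89 CPM in unbound RNA. It was low in both fractions but higher in every IP library, by 1.30 ± 0.27 on the log2 scale (SE, edgeR adjusted p = 0.00526). The Kcnh6 call was lost with scaling on pan-neuronal markers and with the lane 2 libraries alone (edgeR adjusted p = 0.0514 and 0.07325). The lane 2 libraries are replicates 1 and 3 of each group, so that fit also leaves out both replicate 2 libraries. Kcnh2, the main erg channel of heart and brain, had 55.3, 55.1 and 38.3 CPM in IP RNA, against 27.98, 24.4 and 37.7 CPM in unbound RNA, so that IP replicate 3 lay only just above unbound replicate 3. Its difference was 0.72 ± 0.21 on the log2 scale (SE, edgeR adjusted p = 0.0211). This call was lost in 5 of the 17 alternatives, among them the omission of IP replicate 1, IP replicate 2 or unbound replicate 2 (edgeR adjusted p from 0.0719 to 0.0767) and scaling on pan-neuronal markers. Of the remaining ether-a-go-go genes, Kcnh3 and Kcnh4 had log2 fold changes of -2.26 and -2.22 and did not pass the test with all libraries.

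Kcna1 (chr6:126640397-126646384, minus strand), the Kv1.1 channel of axons, had 97.4, 114 and 104 CPM in IP RNA, against 238, 294 and 329 CPM in unbound RNA. All 3 IP libraries lay below all 3 unbound libraries, and the difference was -1.45 ± 0.16 on the log2 scale (SE, edgeR adjusted p = 0.000317). Kcna2, which forms mixed channels with Kv1.1 on axons and had the highest mean CPM of the subunits, a measure that also grows with gene length, had 408, 379.9 and 370.1 CPM in IP RNA, against 319, 388 and 482 CPM in unbound RNA. These ranges overlapped, at -0.04 ± 0.17 on the log2 scale (SE, edgeR adjusted p = 0.870). Kcna3, a Kv1 channel also known from lymphocytes and microglia, had 12.4, 15.1 and 8.51 CPM in IP RNA, against 5.92, 6.77 and 6.24 CPM in unbound RNA. It was higher in every IP library, by 0.93 ± 0.24 on the log2 scale (SE, edgeR adjusted p = 0.0126). Summed microglial markers were at 20.03, 25.4 and 8.25 CPM in IP RNA, against 115, 86.1 and 72.0 CPM in unbound RNA, and their part in the Kcna3 result was not tested. The Kcna3 call was lost with scaling on pan-neuronal markers and with the lane 2 libraries alone (edgeR adjusted p = 0.2665 and 0.1125).

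The M-current is a slow potassium current that transmitters acting on muscarinic receptors shut off, and Kcnq3 and Kcnq5 encode subunits of its channels. Kcnq3 had 34.2, 34.5 and 28.6 CPM in IP RNA, against 54.2, 69.9 and 34.9 CPM in unbound RNA, where replicate 3 was near the IP level. Its difference was -0.71 ± 0.23 on the log2 scale (SE, edgeR adjusted p = 0.0370), a call lost in 8 of the 17 alternatives, which include the omission of any library other than unbound replicate 3. Kcnq5 had 57.9, 63.6 and 40.9 CPM in IP RNA, against 76.3, 83.9 and 17.6 CPM in unbound RNA, with unbound replicate 3 below all other libraries, and did not pass (edgeR adjusted p = 0.865). Among the silent modifier subunits, Kcng2 had 7.84, 5.98 and 4.98 CPM in IP RNA, against 2.96, 2.44 and 1.44 CPM in unbound RNA, without overlap, at 1.46 ± 0.33 on the log2 scale (SE, edgeR adjusted p = 0.00739). Its call was lost with scaling on pan-neuronal markers and with the lane 2 libraries alone (edgeR adjusted p = 0.0735 and 0.0630). Kcng4 had 4.66, 4.21 and 5.25 CPM in IP RNA, against 7.07, 8.02 and 27.2 CPM in unbound RNA. It was lower, at -1.58 ± 0.51 on the log2 scale (SE, edgeR adjusted p = 0.0366), and at -0.68 without unbound replicate 3, which had by far the most. The call was lost in 6 of the 17 alternatives, among them the omission of any 1 IP library (edgeR adjusted p from 0.100 to 0.110).

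Among 13 tested inward rectifiers, 2 rose and 4 fell (15.4% and 30.8%, against 21.1% and 23.2% of all genes). The G-protein-gated subunits Kcnj5 and Kcnj9 were higher in IP RNA, and Kcnj10 and Kcnj16, which form the potassium uptake channel of astrocytes and other glia, were lower by more than any other pore-forming subunit called. G-protein-gated channels open when inhibitory transmitters and peptides act on their receptors and so quiet the neuron. Kcnj5 (chr9:32314707-32344350, minus strand), or GIRK4, a subunit best known from heart atrium, had 24.1, 26.9 and 22.1 CPM in IP RNA, against 12.2, 7.70 and 7.63 CPM in unbound RNA. Every IP library was above every unbound library, at 1.41 ± 0.22 on the log2 scale (SE, edgeR adjusted p = 0.00138). Kcnj9 (chr1:172320501-172329318, minus strand), or GIRK3, had 43.1, 40.2 and 35.8 CPM in IP RNA, against 24.3, 28.8 and 22.4 CPM in unbound RNA. It too showed no overlap, and rose by 0.66 ± 0.15 on the log2 scale (SE, edgeR adjusted p = 0.00789). The Kcnj9 call was lost in 1 of the 17 alternatives, scaling on pan-neuronal markers (0.07, edgeR adjusted p = 0.756).

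The other G-protein-gated subunits did not pass the test. Kcnj3, or GIRK1, the partner with which GIRK4 forms channels in heart, had 66.9, 67.4 and 71.02 CPM in IP RNA, against 60.6, 83.1 and 55.03 CPM in unbound RNA. Kcnj6, or GIRK2, had 19.8, 21.7 and 16.4 CPM in IP RNA, against 16.7, 30.3 and 16.7 CPM in unbound RNA. Both pairs of ranges overlapped, with edgeR adjusted p of 0.837 and 0.678. The ATP-sensitive subunit Kcnj11 (Kir6.2), which couples neuronal firing to glucose, had 13.9, 12.7 and 13.3 CPM in IP RNA, against 10.98, 13.2 and 14.03 CPM in unbound RNA, at 0.06 ± 0.17 on the log2 scale (SE, edgeR adjusted p = 0.779). Its relative Kcnj8 (Kir6.1), known from blood vessel walls, had 0.238, 0.321 and 0.222 CPM in IP RNA, against 0.476, 0.174 and 1.54 CPM in unbound RNA. These levels are low, and the gene did not pass (edgeR adjusted p = 0.153).

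Kcnj10 (chr1:172341210-172374085, plus strand), which encodes Kir4.1, had 15.3, 19.7 and 8.94 CPM in IP RNA, against 122, 115.5 and 251 CPM in unbound RNA. All IP libraries were below 20 CPM and all unbound libraries above 100 CPM. The level was 11.2-fold lower in IP RNA, at -3.48 ± 0.41 on the log2 scale (SE, edgeR adjusted p = 0.000764). Kcnj16 (chr11:110968033-111027968, plus strand), or Kir5.1, which pairs with Kir4.1, had 1.66, 2.67 and 1.25 CPM in IP RNA, against 17.2, 17.6 and 31.1 CPM in unbound RNA, at -3.58 ± 0.36 on the log2 scale (SE, edgeR adjusted p = 0.000237). The groups did not overlap, and IP replicate 3 was lowest and unbound replicate 3 highest for both genes. Summed astrocyte markers were also lower in IP RNA, at 223, 341 and 146 CPM, against 1587, 1778 and 1471 CPM in unbound RNA. This sum was lowest in replicate 3 among the unbound libraries, as were Slc1a2 (1168, 1379 and 778 CPM), its largest part, and Slc1a3. Every other listed astrocyte marker was highest in unbound replicate 3, as both genes were, for example Aqp4 at 73.7, 75.3 and 155.7 CPM. Summed oligodendrocyte markers were at 372, 572 and 341 CPM in IP RNA, against 3831, 3655 and 7018 CPM in unbound RNA. The part of either marker set in the fall of both genes was not tested.

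Kcnj13 (Kir7.1), an epithelial channel abundant in choroid plexus, had 0.998, 2.03 and 1.45 CPM in IP RNA, against 10.3, 13.4 and 2.33 CPM in unbound RNA. It was lower, at -2.54 ± 0.61 on the log2 scale (SE, edgeR adjusted p = 0.0111), with unbound replicate 3 close to the IP level. The call was lost in 4 of the 17 alternatives, among them the omission of IP replicate 1 or IP replicate 3 (edgeR adjusted p = 0.0520 and 0.0679). The summed choroid plexus markers given above are likewise low in unbound replicate 3, and their part was not tested. Kcnj2 (Kir2.1), which holds the resting potential, had 23.6, 18.6 and 15.5 CPM in IP RNA, against 37.2, 34.9 and 28.5 CPM in unbound RNA, and was lower, at -0.80 ± 0.19 on the log2 scale (SE, edgeR adjusted p = 0.00955). Kcnj4 (Kir2.3), named after its values were seen, had 2.45, 4.15 and 3.09 CPM in IP RNA, against 13.6, 15.1 and 0.144 CPM in unbound RNA. It did not pass with all libraries and was called lower without unbound replicate 3.

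**Figure D2:**
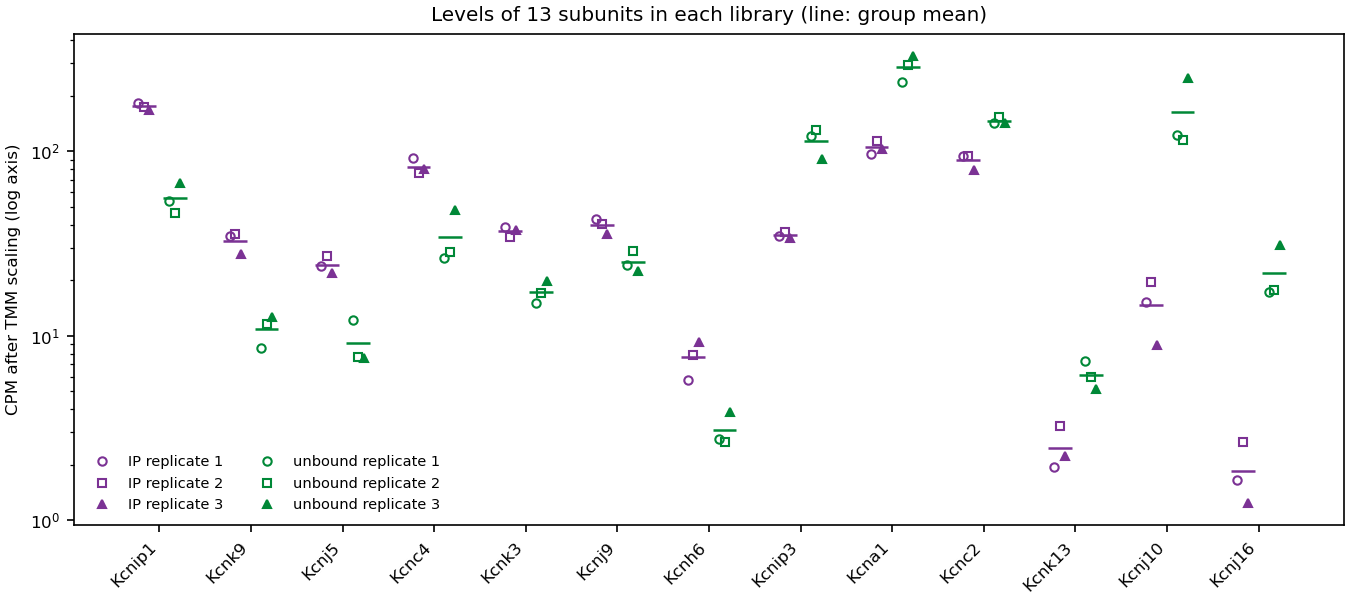
CPM on a log axis of 13 subunits in each IP library (purple, left) and each unbound library (green, right), with a line at the group mean. The IP libraries of Kcnip1, Kcnk9, Kcnj5, Kcnc4, Kcnk3, Kcnj9 and Kcnh6 all lie above their unbound libraries, and those of Kcnip3, Kcna1, Kcnc2, Kcnk13, Kcnj10 and Kcnj16 all lie below.

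K2P channels carry the background leak of potassium that sets the resting potential. The acid-sensitive TASK genes Kcnk9 and Kcnk3 were both higher in IP RNA, and Kcnk13, known from microglia, was lower. Kcnk9 (chr15:72501089-72546340, minus strand), or TASK-3, had 34.98, 35.7 and 27.8 CPM in IP RNA, against 8.55, 11.6 and 12.6 CPM in unbound RNA. The lowest IP library had more than 2 times the highest unbound library, and the difference was 1.59 ± 0.20 on the log2 scale (SE, edgeR adjusted p = 0.000526). Kcnk3 (chr5:30588170-30625271, plus strand), or TASK-1, which can form mixed channels with TASK-3, had 38.7, 34.3 and 37.7 CPM in IP RNA, against 15.1, 17.1 and 19.8 CPM in unbound RNA. No library of 1 group reached the other, at 1.09 ± 0.15 on the log2 scale (SE, edgeR adjusted p = 0.000917).

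Kcnk13 (chr12:99964499-100062682, plus strand), or THIK-1, had 1.95, 3.25 and 2.22 CPM in IP RNA, against 7.35, 5.96 and 5.18 CPM in unbound RNA. The groups did not overlap, and the gene was lower, at -1.32 ± 0.29 on the log2 scale (SE, edgeR adjusted p = 0.00620). Of 8 tested microglial markers, 7 were lower in IP RNA, and their part in this result was not tested. Kcnk10 (TREK-2), a channel gated by stretch and lipids, had 7.13, 5.46 and 5.65 CPM in IP RNA, against 3.81, 4.22 and 3.38 CPM in unbound RNA. It passed at 0.68 ± 0.23 on the log2 scale (SE, edgeR adjusted p = 0.0414), a call lost in 14 of the 17 alternatives, among them the replicate block and the omission of any 1 library. The K2P genes with the highest mean CPM, Kcnk1 (TWIK-1) and Kcnk2 (TREK-1), did not pass: Kcnk1 had 91.9, 90.1 and 66.04 CPM in IP RNA, against 85.7, 88.2 and 58.99 CPM in unbound RNA, and Kcnk2 had 79.4, 83.8 and 66.04 CPM in IP RNA, against 73.7, 64.1 and 31.1 CPM in unbound RNA. Both overlapped between groups, with unbound replicate 3 the lowest library for each.

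In the calcium-activated class 0 of 7 tested genes rose and 3 fell (0% and 42.9%, against 21.1% and 23.2% of all genes). Kcnn2 (SK2), which carries a slow current after action potentials, had 12.1, 12.2 and 11.98 CPM in IP RNA, against 17.3, 19.9 and 26.4 CPM in unbound RNA. It was lower in every IP library, at -0.81 ± 0.19 on the log2 scale (SE, edgeR adjusted p = 0.00848). The sodium-activated channel Kcnt1 had 36.3, 30.1 and 20.03 CPM in IP RNA, against 48.2, 44.5 and 48.02 CPM in unbound RNA, and was lower, at -0.70 ± 0.21 on the log2 scale (SE, edgeR adjusted p = 0.0223). The call was lost in 3 of the 17 alternatives, among them the omission of IP replicate 2 or unbound replicate 1 (edgeR adjusted p = 0.0598 and 0.0702). Its relative Kcnt2 had 15.1, 14.2 and 8.76 CPM in IP RNA, against 31.4, 38.5 and 13.5 CPM in unbound RNA, so that unbound replicate 3 lay within the IP range. It passed at -1.13 ± 0.38 on the log2 scale (SE, edgeR adjusted p = 0.0424), and the call was lost in 8 of the 17 alternatives, which include the omission of any library other than unbound replicate 3. Kcnn3 (SK3) had 26.4, 33.6 and 23.1 CPM in IP RNA, against 49.9, 55.0 and 26.3 CPM in unbound RNA, and Kcnma1, the BK channel gated by both voltage and calcium, had 106, 106 and 100.2 CPM in IP RNA, against 143, 174 and 78.3 CPM in unbound RNA. Neither passed with all libraries (edgeR adjusted p = 0.0794 for Kcnn3 and 0.309 for Kcnma1). Both were called lower without unbound replicate 3, and Kcnn3 also with the replicate block.

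Auxiliary subunits held the largest rise and the largest fall of the family. KChIP proteins, encoded by Kcnip genes, bind calcium and the Kv4 channels that carry the fast A-type current, and KChIP3 also acts on gene transcription. Kcnip1 (chr11:33629339-33993152, minus strand) had 184, 175 and 168 CPM in IP RNA, against 53.6, 46.3 and 67.3 CPM in unbound RNA. The groups did not overlap, and the level was 3.15-fold higher in IP RNA, at 1.66 ± 0.16 on the log2 scale (SE, edgeR adjusted p = 0.000193). Kcnip3 (chr2:127456498-127522094, minus strand) had 34.9, 36.5 and 33.9 CPM in IP RNA, against 121, 131 and 91.2 CPM in unbound RNA. It moved the other way without overlap, at -1.70 ± 0.16 on the log2 scale (SE, edgeR adjusted p = 0.000169). Summed GABAergic markers were likewise lower where Kcnip3, Kcna1 and Kcnc2 were, at 439.8, 579 and 453 CPM in IP RNA, against 1483, 1397 and 1215 CPM in unbound RNA, and their part in these results was not tested. The ratio of Kcnip1 to Kcnip3 counts within a library was 5.26, 4.80 and 4.97 in IP RNA, against 0.443, 0.355 and 0.737 in unbound RNA. This pair too was chosen as a rise over a fall, so the ratio shows size only.

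Kcnip4 had 167.5, 161 and 184 CPM in IP RNA, against 133, 116 and 124 CPM in unbound RNA, and was higher by 0.46 ± 0.13 on the log2 scale (SE, edgeR adjusted p = 0.0181). This small rise lost its call without unbound replicate 2 (edgeR adjusted p = 0.0696) and became -0.13 when the libraries were scaled on pan-neuronal markers. Kcnip2 had 42.4, 39.2 and 30.3 CPM in IP RNA, against 146, 144 and 14.7 CPM in unbound RNA. Unbound replicate 3 was below every IP library, and the gene did not pass with all libraries (edgeR adjusted p = 0.200) but was called lower without that library. The Kv4 pore genes to which KChIPs bind, Kcnd1, Kcnd2 and Kcnd3, did not pass in the main test. Of these, Kcnd2 had 70.6, 72.1 and 52.04 CPM in IP RNA, against 114, 106 and 47.3 CPM in unbound RNA, and was called lower without unbound replicate 3.

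Beta subunits of Kv1 channels, which bind the channel from inside the cell, had 1 fall among 3 tested genes. Kcnab1 had 27.3, 38.3 and 27.01 CPM in IP RNA, against 113, 124 and 39.2 CPM in unbound RNA, and was lower, at -1.58 ± 0.41 on the log2 scale (SE, edgeR adjusted p = 0.0190). The call was lost in 6 of the 17 alternatives, among them the omission of IP replicate 1, IP replicate 3, unbound replicate 1 or unbound replicate 2 (edgeR adjusted p from 0.0554 to 0.104). Kcnab2 had 146, 155 and 161 CPM in IP RNA, against 126, 147 and 199.7 CPM in unbound RNA, with overlapping groups and -0.03 ± 0.18 on the log2 scale (SE, edgeR adjusted p = 0.890). Among beta subunits of the BK channel, Kcnmb1, the form known from smooth muscle, had 0, 8 and 0 counts in IP RNA, against 92, 43 and 67 counts in unbound RNA. Its fitted difference of -4.47 ± 1.11 on the log2 scale (SE, edgeR adjusted p = 0.0115) rests on few reads and ranged from -9.13 to -3.81 as single IP libraries were left out. Summed vascular markers were at 6.84, 10.4 and 5.54 CPM in IP RNA, against 36.5, 30.1 and 54.6 CPM in unbound RNA, and their part in this fall was not tested.

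Kcnmb2, which inactivates BK channels, had 8.58, 10.3 and 7.11 CPM in IP RNA, against 6.17, 4.45 and 5.97 CPM in unbound RNA. It passed narrowly, at 0.65 ± 0.23 on the log2 scale (SE, edgeR adjusted p = 0.0478), and lost the call in 11 of the 17 alternatives, among them the replicate block and the omission of IP replicate 1 or 2 or of unbound replicate 1 or 2. Kcnmb4, the main beta subunit of neuronal BK channels, had 1.97, 2.93 and 1.89 CPM in IP RNA, against 7.80, 9.77 and 2.38 CPM in unbound RNA, with unbound replicate 3 inside the IP range, and was lower, at -1.56 ± 0.48 on the log2 scale (SE, edgeR adjusted p = 0.0287). The call was lost in 6 of the 17 alternatives, among them the omission of IP replicate 1, IP replicate 3, unbound replicate 1 or unbound replicate 2 (edgeR adjusted p from 0.0912 to 0.112). Kcne2, a single-pass subunit abundant in choroid plexus, had 0.214, 0.418 and 0.689 CPM in IP RNA, against 4.86, 5.84 and 0.576 CPM in unbound RNA, where replicate 3 lay within the IP range. It was lower, at -3.08 ± 0.83 on the log2 scale (SE, edgeR adjusted p = 0.0170). Summed choroid plexus markers are likewise low in unbound replicate 3, and their part in this fall was not tested. The Kcne2 call was lost in 7 of 16 alternatives, among them the replicate block and the omission of IP replicate 1 or 2 or of unbound replicate 1 or 2. Kcne1l, an X-linked gene of the same kind, had 1.52, 0.321 and 0.289 CPM in IP RNA, against 3.36, 2.41 and 6.38 CPM in unbound RNA, and was lower, at -2.50 ± 0.69 on the log2 scale (SE, edgeR adjusted p = 0.0184). It was at -3.71 without IP replicate 1, and the call was lost without IP replicate 2 (-2.15, edgeR adjusted p = 0.0573), without IP replicate 3 (-2.06, edgeR adjusted p = 0.0533) and with lane 2 alone (-2.42, edgeR adjusted p = 0.0729).

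Within symbol families that held both a rise and a fall, the within-library count ratio of the largest rise to the largest fall separated the groups. Kcnj5 over Kcnj16 was 14.5, 10.1 and 17.7 in IP RNA, against 0.707, 0.437 and 0.245 in unbound RNA. Kcnk9 over Kcnk13 was 18.0, 11.0 and 12.5 in IP RNA, against 1.16, 1.94 and 2.44 in unbound RNA. Kcna3 over Kcna1 was 0.127, 0.132 and 0.0822 in IP RNA, against 0.0249, 0.0231 and 0.019 in unbound RNA. In each pair the IP libraries had the higher ratio, which the choice of a rise over a fall fixes. The ratios therefore show size only.

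Levels per kilobase of exon allow genes to be set beside each other. In IP RNA the order began with Kcnip4 at 47.1 ± 3.29, Kcnk1 at 36.99 ± 6.46, Kcna2 at 32.4 ± 1.66 and Kcnip1 at 28.4 ± 1.26 CPM per kb (SD, n = 3). Kcnk1 and Kcna2 did not differ beyond their spread. In unbound RNA it began with Kcna1 at 59.99 ± 9.62, Kcnk1 at 34.7 ± 7.25, Kcnip4 at 34.3 ± 2.27, Kcna2 at 33.3 ± 6.89 and Kcnip3 at 32.2 ± 5.79 CPM per kb, of which the last 4 overlapped within their spread. Kcnip1 ranked 4 of 78 in IP RNA and 22 in unbound RNA, Kcnc4 ranked 6 and 21, Kcna1 ranked 8 and 1, and Kcnj10 ranked 39 and 6.

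**Figure D3:**
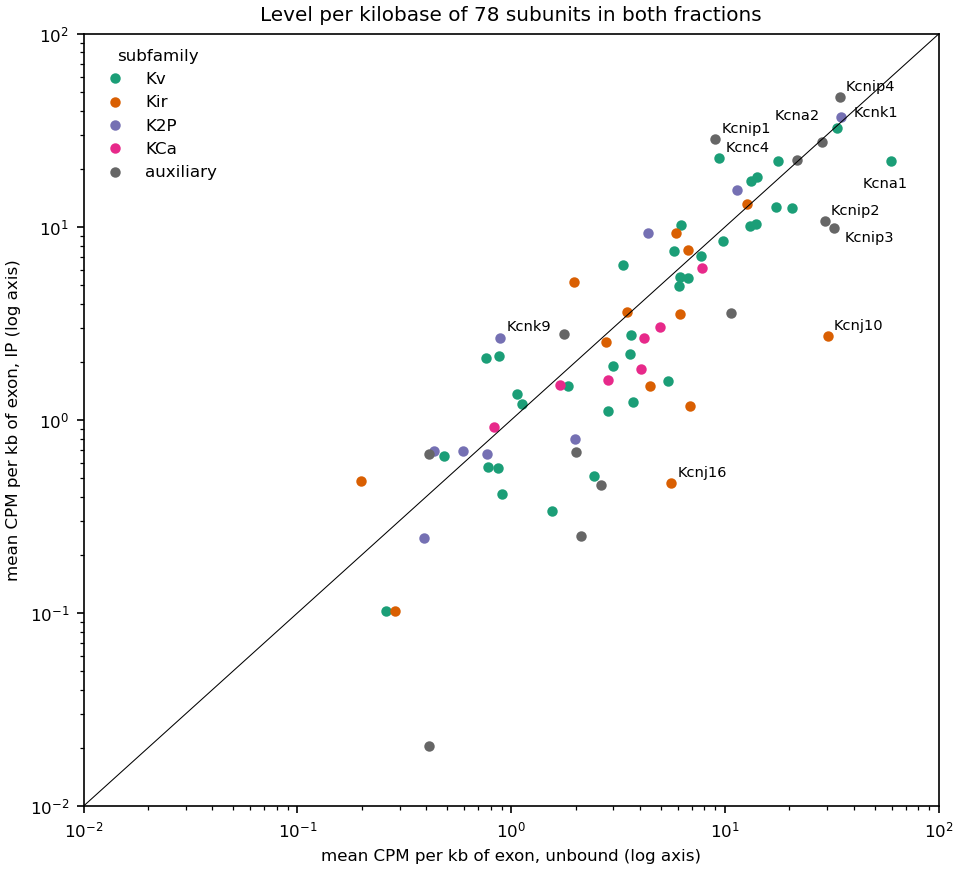
Mean CPM per kb of exon of the 78 tested subunits in IP RNA (vertical, log axis) and unbound RNA (horizontal, log axis), coloured by class, with a line of equal level. Kcnip1 and Kcnc4 lie above the line near the top of the order, and Kcna1, Kcnip3 and Kcnj10 lie below it.

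The number of subunits called lower depended on unbound replicate 3. In it, 12 of the 78 tested subunits (15.4%) were under 0.25 times the mean of unbound replicates 1 and 2, against 1.92% of 14308 genes with a mean of at least 1 CPM. These were Kcnj4, Kcnh3, Kcnh4, Kcnv1, Kcnip2, Kcne2, Kcnj13, Kcns1, Kcnq5, Kcnh1, Kcnf1 and Kcng3. Another 8 (10.3%, against 3.93% of genes) were over 2 times that mean, among them Kcnj8, Kcng4, Kcne1l and Kcnj10. No minimum mean CPM was set for the subunits (lowest 0.495 CPM), so these shares are of unlike sets. The ratio bounds were chosen after the values were seen and serve as description only. Kcnh3, for example, had 3.26, 4.79 and 0.800 CPM in IP RNA, against 18.7, 22.9 and 0.432 CPM in unbound RNA, and Kcnv1, a silent modifier, had 6.80, 9.51 and 5.45 CPM in IP RNA, against 33.9, 37.4 and 2.64 CPM in unbound RNA. For both, IP replicate 3 was also the lowest of its group.

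Without unbound replicate 3, 17 more subunits were called lower, among them Kcna4, Kcnd2, Kcng3, Kcnh1, Kcnh3, Kcnh4, Kcnh7, Kcnip2, Kcnj4, Kcnma1, Kcnn3, Kcnq5 and Kcnv1. In the same fit Kcna6, Kcnab3, Kcnc1 and Kcnj14 were called higher and Kcnk10 was not called. Kv channels then had 7 higher and 17 lower of 36 tested (19.4% and 47.2%), and Kir channels 3 and 5 of 13 (23.1% and 38.5%). K2P channels had 2 and 1 of 9 (22.2% and 11.1%), and KCa channels 0 and 5 of 7 (0% and 71.4%). Auxiliary subunits had 4 and 7 of 13 (30.8% and 53.8%). Over all genes this fit called 24.0% higher and 25.8% lower. Summed markers of striatum and of choroid plexus were low in unbound replicate 3 too, and their part in these counts was not tested.

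**Figure D4:**
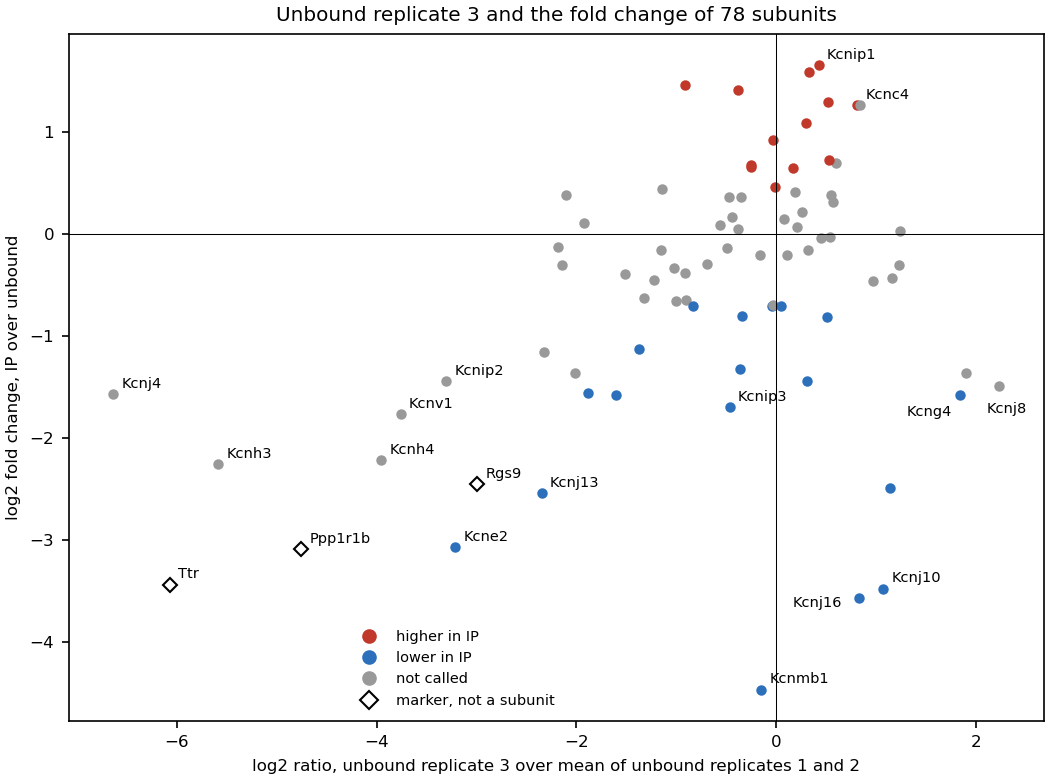
Log2 fold change of IP over unbound RNA (vertical) against the log2 ratio of unbound replicate 3 to the mean of unbound replicates 1 and 2 (horizontal) for the 78 tested subunits, coloured by call, with 3 marker genes as diamonds. The axes share the unbound libraries, and Kcnj4, Kcnh3, Kcnh4, Kcnv1 and Kcnip2 lie far to the left, uncalled, near the choroid plexus marker Ttr and the striatal markers Ppp1r1b and Rgs9.

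Genes outside the symbol rule that act with potassium channels were tested in the same fit. Of 13 tested partners of channel complexes, 4 (30.8%) were higher in IP RNA, against 21.1% of all genes, and 2 (15.4%) lower, against 23.2%. The rises were Dpp6, a Kv4 partner (0.85), Amigo1, a Kv2 partner (0.61), Lrrc55, a BK partner (0.69), and Cntnap2, which places Kv1 channels along axons (0.83), as log2 fold changes. The falls were Abcc9, the sulfonylurea receptor paired with Kir6.1 in vessels (-1.35), and Cntn2, an adhesion partner of Cntnap2 (-0.92). Of 11 genes for the sodium-potassium pump and chloride-potassium cotransport, 5 (45.5%) were higher and 3 (27.3%) lower, against the same background. Those that rose included the neuronal cotransporter Slc12a5 (0.75), the pump's beta subunit Atp1b1 (0.71) and the pump regulators Fxyd6 (1.69) and Fxyd7 (1.08), and those that fell included the pump regulator Fxyd1 (-1.87) and the cotransporter Slc12a2 (-1.57).

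Kcnc4, Kcnip1, Kcnj5, Kcnk3 and Kcnk9 kept their call as higher in all 17 alternatives, and Kcna1, Kcnc2, Kcnip3, Kcnj10, Kcnj16, Kcnk13 and Kcnmb1 kept theirs as lower. Kcnj2 and Kcnn2 lost their call as lower only with the lane 2 libraries alone (edgeR adjusted p = 0.107 and 0.0715). Exons of 26 members overlap a gene on the opposite strand in GENCODE M21, 9 of them called: Kcnab1, Kcng2, Kcnip4, Kcnj13, Kcnj9, Kcnk3, Kcnmb4, Kcnn2 and Kcnt2. The strand setting of the counting is not given in the sources used here. Whether reads in these overlaps were assigned by strand or set aside as lying on several genes is therefore not known. Reads that fell on several genes at once and were not counted made up 1.64%, 1.58% and 1.62% of those listed in IP libraries, against 8.84%, 7.08% and 9.02% in unbound libraries.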

How the data were processed

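Each file holds the read counts that the authors deposited for 1 library, as whole numbers per gene. Per the submitters' processing notes, alignment used STAR 2.0.0e with mm10 and counting used HTSeq. The sources used here do not give the annotation or the strand setting. Per the summary entries of the deposited count files, reads with several alignments or on several genes were set aside, and these entries stayed out of library sizes and tests. The sample type label gave the groups.

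The counts were fitted in R 4.3.3 with edgeR 4.0.16: TMM scaling over all gene rows, filterByExpr defaults (minimum count 10, minimum total 15), a robust quasi-likelihood fit on group, and Benjamini-Hochberg adjustment over 16991 genes at 0.05. The members and lists were chosen with earlier results of these data known. In each class, values are given for up to 4 members with the smallest adjusted p, 3 with the highest mean CPM, the largest called rise and fall, and sets chosen by function, of which a few are not reported here. Other subunits given with values, such as Kcnab1, Kcnc1, Kcnd2, Kcne1l, Kcnh2, Kcnh3, Kcnh4, Kcnip2, Kcnj2, Kcnj4, Kcnmb2, Kcnmb4 and Kcnv1, were named after their values were seen.

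All 93 symbols matched GENCODE M21 (GRCm38, also called mm10). Replicate numbers are shared between groups: over genes, same-numbered libraries deviated together from the group means, with correlations of 0.139, 0.164 and 0.206, all above 0.1. The numbers were therefore treated as pairs in 1 alternative, the replicate block, on the basis of these values rather than of any label. Replicate 2 of both groups was on lane 4 and the other libraries on lane 2. For replicate 2, a pair and a shared lane thus cannot be told apart. The main test, which gave every adjusted p not said to come from an alternative, used the group alone. Alternatives covered scaling, filters, DESeq2 1.42.0, limma-voom (limma 3.58.1), the block, lane and each library left out.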

Additional observations from a re-analysis of the deposited data

How the results depend on the processing

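Of the 17 alternatives, scaling on pan-neuronal markers moved most: it put the median log2 fold change of all genes at -0.60, against -0.01 in the main test, and that of the subunits at -0.893. It called 5 subunits higher and 36 lower (6.41% and 46.2%). Among all genes it called 658 higher and 7762 lower (3.87% and 45.7%), against 3586 and 3943 in the main test. Under it Kcnip4 lost its call and turned negative (-0.13), and Kcnj11 (-0.52) and Kcnj3 (-0.55), not called in the main test, were called lower. Further subunits with a positive value in the main test turned negative without a call, among them Kcna6 (-0.21), Kcnc1 (-0.27) and Kcnk1 (-0.51). Lane 2 libraries alone gave 6 higher and 7 lower (7.69% and 8.97%, against 7.49% and 14.7% of all genes). Without the third pair 16 were higher and 33 lower (20.5% and 42.3%, against 26% and 27.3% of all genes). Leaving out single libraries gave 9 to 16 higher (11.5% to 20.5%, against 14.3% to 24% of all genes). It gave 11 to 35 lower (14.1% to 44.9%, against 18.7% to 25.8% of all genes), with 11 lower without IP replicate 1 or IP replicate 3 and 35 without unbound replicate 3. The replicate block gave 12 higher and 20 lower (15.4% and 25.6%, against 23.3% and 23.6% of all genes). It lost Kcnk10, Kcnmb2 and Kcne2, gained 4 calls, among them Kcng3, Kcnh7 and Kcnn3, and changed no other call. With the block 15 partner and pump genes were called, against 14 without. DESeq2 gave 14 and 21 (17.9% and 26.9%, against 21.6% and 26.2% of all genes). With limma-voom there were 13 and 12 (16.7% and 15.4%, against 21.3% and 23.4% of all genes). Depth limits the 15 untested subunits and Kcnmb1. The cause of a changed call was not tested.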

Other observations

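Kcnq1ot1, a long noncoding RNA transcribed antisense within the Kcnq1 locus and outside the symbol rule, had 176, 141 and 287 counts in IP RNA, against 977, 831 and 1409 counts in unbound RNA. Every IP library was below every unbound library. Kcnd3os had 18, 11 and 5 counts in IP RNA, against 36, 45 and 44 counts in unbound RNA.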
